A study of Mus musculus with 4 samples.

Results

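The potassium channel genes described here are the mouse genes whose symbol is Kcn followed by lower-case letters and a number, 91 of the 55203 genes listed in the deposited tables. They encode channel pores and the ancillary subunits that bind them. The rule used symbols only and no measured value. A gene's level is its FPKM (fragments divided by transcript length in kilobases and by the library's mapped fragments) summed over its transcripts, a scale per length on which genes can be set side by side. Of the 91 genes, 16 had a mean of at least 1 FPKM over all libraries and 75 did not.

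The sequenced RNA came from the intestine of adult, male, wild-type C57BL/6NTac mice aged 8 to 12 weeks and kept under specific-pathogen-free conditions. All 4 libraries shared this background, with no engineered allele. Of these, 2 were labelled RVC, for 4 mM ribonucleoside vanadyl complex, an inhibitor of ribonucleases, and 2 were labelled fresh frozen. Per the series' design text, the bulk measurement was made to set beside MERFISH, an imaging method that counts transcripts in tissue sections. The same protocol text, with an RVC rinse, stands for both groups, and only the label sets the fresh-frozen libraries apart. Batch numbers ran from 1 to 4 with 1 library in each, and the effects of batch and group cannot be told apart. The labels do not say that the libraries came from separate animals, and p-values therefore measure only the spread between these libraries.

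The tissue label was ileum, while the protocol named distal colon. The colon transcription factor Hoxb13 was listed at 133 and 124 FPKM in RVC, and 132 and 98.5 FPKM in fresh frozen. Of 5 ileum genes, Fgf15, Apoa4 and Defa17 were listed at 0 in all 4 libraries. The summed FPKM of the 5 ileum genes was 5.14 and 6.44 in RVC and 7.03 and 5.77 in fresh frozen, against 5354, 4501, 4241 and 3604 for 5 colon genes. Defining markers of ileum were thus absent or low, and the tissue is called intestine here. Relative depth was 81.8% and 79.8% in RVC and 72.6% and 100% in fresh frozen, taking the deepest library as 100%, and 14247 to 14573 genes per library reached 1 FPKM.

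Potassium channels let potassium ions cross the membrane selectively and thereby hold the membrane potential negative. In the intestinal epithelium, potassium leaving through basolateral channels maintains the driving force for chloride secretion and sodium absorption, and apical channels secrete potassium into the lumen. In smooth muscle and interstitial cells they set excitability and relaxation, and in enteric neurons they shape the action potential. Every pore is lined by a selectivity filter, a short stretch that ends in the residues glycine, tyrosine or a close substitute, and glycine. Voltage-gated, calcium-activated and inward-rectifier subunits carry 1 such stretch each. Subunits of the two-pore family carry a pair of them and give background, or leak, currents.

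The filter codons of 8 pore-forming genes at 1 FPKM or more are shown because they are the shared feature that distinguishes pore from ancillary subunits. Each line gives 27 coding bases, 5′ to 3′ on the gene's strand, from GRCm39 with GENCODE vM39 coding sequences. Capitals mark 5 codons for threonine or serine, any residue, glycine, a tyrosine, phenylalanine or leucine, and glycine.

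Kcnk5, first pore: atcaccACCATCGGTTATGGCaatgtg

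Kcnk5, second pore: atctccACCATTGGCTTTGGGgacttt

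Kcnk1, first pore: ctctccACCACAGGCTATGGCcacacg

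Kcnk1, second pore: ctgagcACCATCGGCCTGGGGgactat

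Kcnk6, first pore: gtcaccACCGTGGGCTATGGCtacacg

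Kcnk6, second pore: ctgtccACCATTGGCCTAGGGgactac

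Kcnma1: atgtctACAGTGGGTTATGGGgacgtt

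Kcnj8: caagtgACCATTGGGTTTGGAgggaga

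Kcnd3: atgactACACTGGGATATGGAgacatg

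Kcnf1: atgaccACAGTGGGCTATGGTgacatc

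Kcnj2: cagacaACCATTGGCTATGGTttcagg

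All 76 pore-forming members held at least 1 such run of codons in their coding sequence, and none of the 15 ancillary members did. Among all 21580 protein-coding genes of the annotation, 1162 (5.38%) held one, so a match by itself does not mark a channel. In the first pore of Kcnk5, Kcnk1 and Kcnk6 the middle residue was tyrosine. In their second pore it was phenylalanine in Kcnk5 and leucine in Kcnk1 and Kcnk6. The first-pore windows of these 3 genes are each interrupted by an intron after base 13 of the 27, within the codon of the first glycine. These introns were 1378 bases long in Kcnk5, 29197 in Kcnk1 and 6294 in Kcnk6. The Kcnd3 window is interrupted after base 14, 1 base further on, by an intron of 198689 bases. The other windows shown lie within 1 exon.

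Few of the 91 genes carried most of the potassium channel RNA. The summed FPKM of all 91 was 193 and 182 in RVC and 220 and 213 in fresh frozen. The 11 genes placed in an epithelial list held 76.1% and 75.3% of that sum in RVC and 83.1% and 79.0% in fresh frozen. The 16 muscle and interstitial genes held 11.4% and 12.3% in RVC and 7.30% and 9.54% in fresh frozen. The neuronal list was the longest, with 37 genes, and held 9.18% and 9.01% in RVC and 6.75% and 8.51% in fresh frozen. The placement is by textbook role, and a gene can be active in several kinds of cell. A lower level in bulk tissue can mean fewer cells of a type or less RNA per cell, and these cannot be told apart here.

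**Figure D1:**
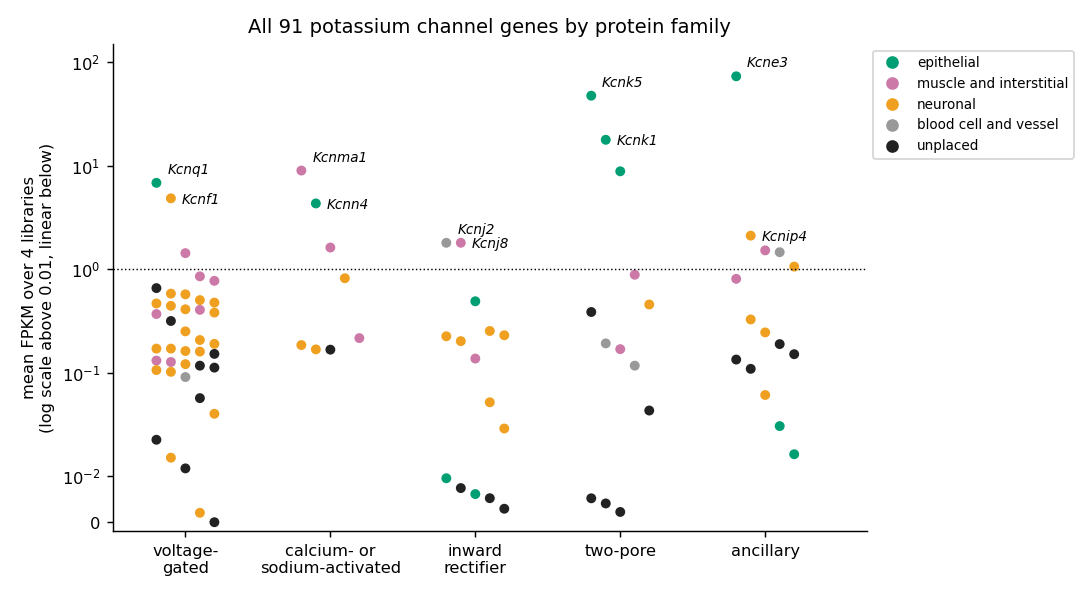
Mean FPKM over 4 libraries (vertical axis, logarithmic above 0.01 and linear below) for each of the 91 genes, arranged by protein family and coloured by list. The dotted line marks 1 FPKM, and 3 of 40 voltage-gated, 3 of 8 calcium- or sodium-activated, 2 of 15 inward-rectifier, 3 of 13 two-pore and 5 of 15 ancillary genes lie above it.

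By protein family, two-pore and ancillary genes were the largest contributors. Two-pore genes held 42.8% and 42.5% of the sum in RVC and 33.9% and 33.2% in fresh frozen. Ancillary genes held 33.6% and 32.7% in RVC and 48.1% and 44.5% in fresh frozen. Most of this was Kcne3 alone, with 56.0 and 51.6 of 64.9 and 59.7 FPKM in RVC. In fresh frozen it made up 97.9 and 87.1 of 106 and 95 FPKM. A higher Kcne3 value lowers the share of every other family. The two-pore sums themselves were 82.7 and 77.5 FPKM in RVC, and 74.4 and 70.9 FPKM in fresh frozen. The voltage-gated family, the largest with 40 genes, held 12.4% and 12.6% in RVC and 9.28% and 11.2% in fresh frozen. Its 40 genes had a median of the mean level of 0.181 FPKM, and 37 of them lay below 1 FPKM.

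**Figure D2:**
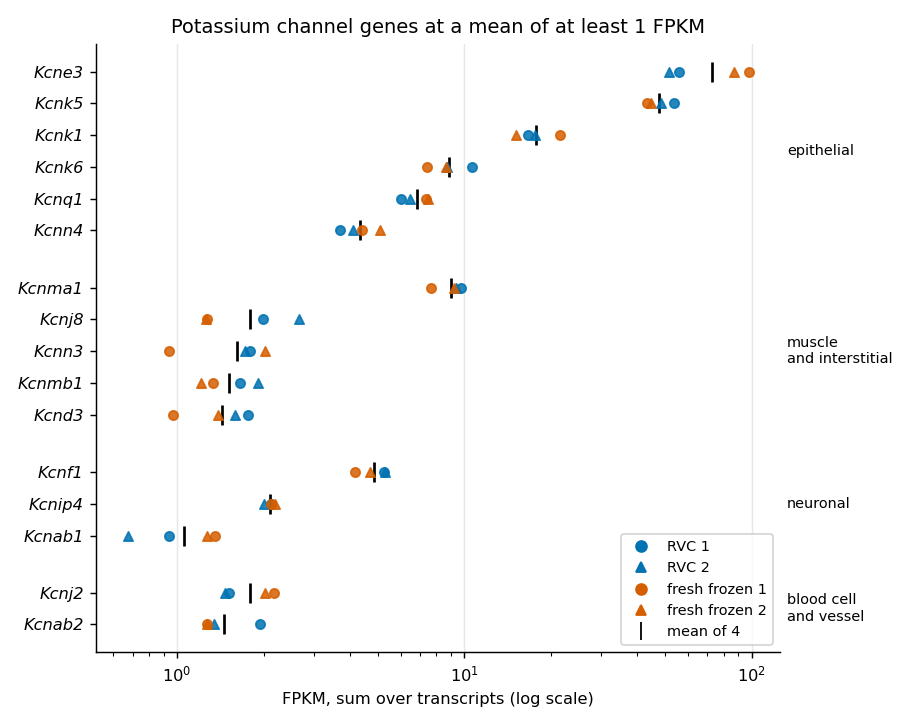
FPKM per library (horizontal axis, logarithmic) of the 16 genes with a mean of at least 1 FPKM, grouped by list. Blue points are RVC and orange points fresh-frozen libraries, circles replicate 1 and triangles replicate 2, and black bars the mean of 4, from 73.1 FPKM for Kcne3 to 1.06 FPKM for Kcnab1.

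Kcne3 (chromosome 7, 99825709 to 99834076, GRCm39 in the deposited tables) was the most abundant member. It encodes a single-span ancillary subunit that holds the Kcnq1 channel open in intestinal crypt cells. Because it is the highest member and the one with the smallest p between the labelled groups, most of its coding sequence is shown. The first 300 of its 309 coding bases lie in 1 exon, on the plus strand at chr7:99833385-99833684, with the start codon in capitals.

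Kcne3: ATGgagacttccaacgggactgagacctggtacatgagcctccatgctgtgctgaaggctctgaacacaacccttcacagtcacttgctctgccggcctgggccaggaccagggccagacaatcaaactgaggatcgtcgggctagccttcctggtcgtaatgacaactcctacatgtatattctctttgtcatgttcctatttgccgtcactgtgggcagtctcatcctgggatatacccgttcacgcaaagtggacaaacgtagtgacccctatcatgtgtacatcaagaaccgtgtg

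Kcne3 was listed at 56.0 and 51.6 FPKM in the RVC libraries and at 97.9 and 87.1 FPKM in the fresh-frozen libraries, with a mean of 73.1 ± 22.9 (SD, n = 4). Both RVC values lay below both fresh-frozen values. This level was above that of 94.1% of the genes with at least 1 FPKM. Its most abundant transcript, ENSMUST00000049333, was 1012 nt long in the deposited tables and took 47.5% and 46.4% of the gene in RVC and 49.8% and 45.8% in fresh frozen. The next 3 transcripts took 24.8%, 12.6% and 8.61% of the mean. All 4 were lower in both RVC libraries than in both fresh-frozen libraries, so the group difference was not carried by 1 transcript. The lncRNA Gm34821 on the opposite strand was listed at 0.128 and 0.108 FPKM in RVC, and 0.516 and 0.370 FPKM in fresh frozen.

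Kcnq1 (chromosome 7, 142660099 to 142980779), the pore subunit that Kcne3 binds, was listed at 6.00 and 6.47 FPKM in RVC and 7.36 and 7.47 FPKM in fresh frozen (mean 6.83 ± 0.708 SD, n = 4). Its gene sum was lower in both RVC libraries. The ancillary subunit therefore exceeded its pore subunit per length in every library, by 9.33 and 7.97 times in RVC and 13.3 and 11.7 times in fresh frozen. Other members of the Kcne group that can bind Kcnq1 were scarce. Kcne1 was at most 0.0841 FPKM and Kcne2 at most 0.0402 FPKM in any library. Of Kcnq1, 91.2% of the mean was a single 3029-nt transcript, listed at 5.44 and 6.35 FPKM in RVC, and 7.01 and 6.11 FPKM in fresh frozen, so for it the groups overlapped. A 282-nt transcript was at 0 in RVC 1 and RVC 2 and at 0.356 and 1.27 FPKM in fresh frozen. Without transcripts under 300 nt the log2 difference of Kcnq1 between RVC and fresh frozen went from -0.21 to -0.07 and its groups overlapped, so the separation of the gene sum rested on that short transcript. Kcnq1ot1, the imprinted antisense transcript of the locus, was listed at 0.889 and 0.870 FPKM in RVC, and 0.945 and 1.36 FPKM in fresh frozen. The sources used here do not state whether counting used strand, and without it reads of overlapping opposite genes cannot be told apart.

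Kcnn4 (chromosome 7, 24069688 to 24086115), the calcium-activated channel of intermediate conductance that secretory agonists open in crypt cells, was listed at 3.68 and 4.09 FPKM in RVC and 4.40 and 5.10 FPKM in fresh frozen (mean 4.32 ± 0.601 SD, n = 4). The groups did not overlap, with RVC lower. Kcnq1 exceeded it by 1.63 and 1.58 times in RVC and 1.67 and 1.46 times in fresh frozen. Taken over gene sums, this ratio of the cAMP-regulated to the calcium-regulated pore gene varied little between libraries, with an SD of 0.0911 around 1.59. The Kcnq1 sum includes its 282-nt transcript, at 0 in RVC and at 1.27 FPKM in the second fresh-frozen library. In that library the 3029-nt Kcnq1 transcript alone was at 6.11 FPKM, beside 5.10 FPKM for Kcnn4. The steadiness of the ratio thus rests in part on the short transcript.

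Kcnk5 (chromosome 14, 20190125 to 20231877), which encodes the acid-sensitive TASK-2 leak channel, was the most abundant pore-forming member. It was listed at 53.6 and 48.5 FPKM in RVC and 43.4 and 44.5 FPKM in fresh frozen (mean 47.5 ± 4.64 SD, n = 4). The RVC values were higher without overlap, the opposite order to Kcne3. The ranges of Kcne3 and Kcnk5 over 4 libraries overlapped, although Kcne3 was the higher within each library. A single transcript took 91.6% of the Kcnk5 mean.

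Kcnk1 (chromosome 8, 126721909 to 126757424), which encodes the TWIK-1 leak channel, was listed at 16.7 and 17.6 FPKM in RVC, and 21.6 and 15.1 FPKM in fresh frozen (mean 17.8 ± 2.78 SD, n = 4). The fresh-frozen libraries held its highest and its lowest value, so the groups overlapped. Kcnk6 (chromosome 7, 28921351 to 28931940), a relative of Kcnk1 known as TWIK-2, was listed at 10.6 and 8.71 FPKM in RVC, and 7.43 and 8.63 FPKM in fresh frozen (mean 8.83 ± 1.29 SD, n = 4). The lower RVC value and the higher fresh-frozen value were next to each other, and after scaling for library composition the groups overlapped. All of Kcnk6 was assigned to 1 transcript. Kcnk5 exceeded Kcnk6 by 5.08 to 5.85 times and Kcnk1 by 2.01 to 3.20 times over the 4 libraries.

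The remaining 5 epithelial genes lay below 1 FPKM. Kcnj13, an inward rectifier of transporting epithelia, was listed at 0.432 and 0.407 FPKM in RVC, and 0.477 and 0.643 FPKM in fresh frozen. Kcnj15 and Kcnj16, inward rectifiers of other acid- or salt-transporting epithelia, had means of 0.00612 and 0.00956 FPKM. Kcnj15 was listed at 0 in 3 libraries.

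The transporters and pumps that work beside these channels gave a mixed picture. Of 17 epithelial transport genes 16 were tested. Between groups, 6 were higher in RVC without overlap, 2 were lower and 8 overlapped. The 2 lower ones were Slc12a2 and Cftr. Slc12a2, the basolateral cotransporter that loads cells with chloride, was listed at 19.6 and 19.6 FPKM in RVC, and 33.7 and 43.2 FPKM in fresh frozen. Cftr, the apical chloride channel, was listed at 10 and 10.3 FPKM in RVC, and 16.0 and 24.6 FPKM in fresh frozen. In both genes each RVC value lay below each fresh-frozen value, as it did in 26.6% of all genes tested. Of the other chloride channel genes in the list, Best2 and Clcn2 overlapped between groups and Ano1 was higher in RVC. Their log2 differences were -0.92 (SE 0.14) for Slc12a2 and -0.89 (SE 0.20) for Cftr, with limma adjusted p of 0.112 and 0.129, and neither passed the threshold.

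Atp12a, the colonic potassium-absorbing pump, was listed at 490 and 322 FPKM in RVC, and 494 and 270 FPKM in fresh frozen, so its libraries differed more within groups than between them. Ano1, a calcium-activated chloride channel also known from interstitial cells of Cajal, was listed at 127 and 122 FPKM in RVC, and 105 and 111 FPKM in fresh frozen.

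**Figure D3:**
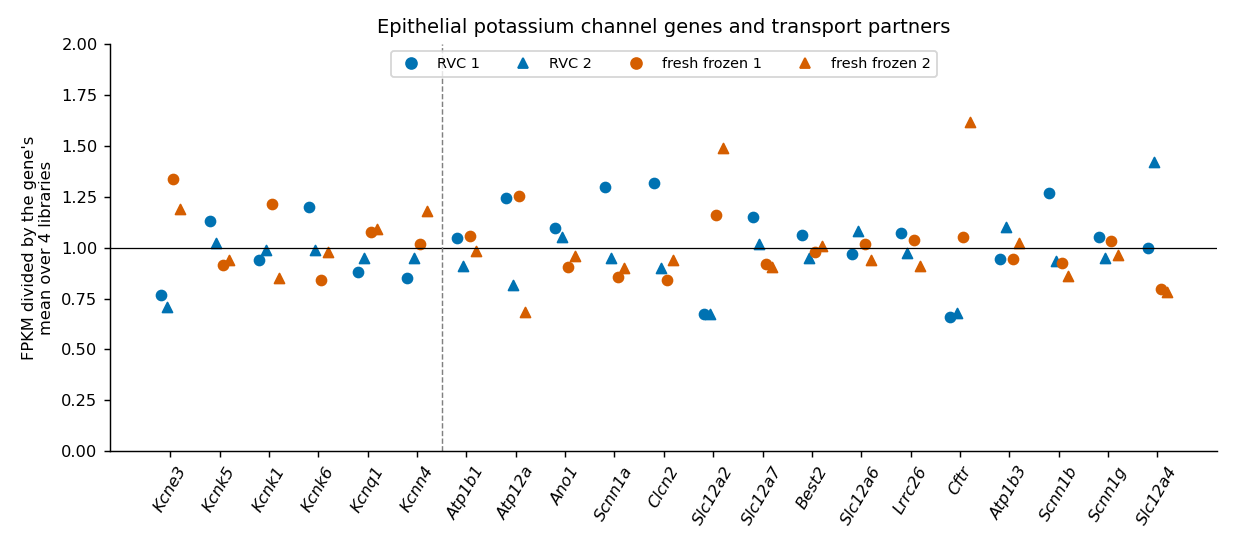
FPKM in each library divided by the gene's mean over 4 libraries (vertical axis, from 0) for the 6 epithelial channel genes at 1 FPKM or more, left of the dashed line, and 15 transport genes, right of it, each set ordered by level. Blue is RVC and orange fresh frozen, and Kcne3, Kcnq1, Kcnn4, Slc12a2 and Cftr have both blue points below both orange points, Kcnq1 only with its 282-nt transcript in the sum.

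Kcnma1 (chromosome 14, 23339499 to 24064559) led the muscle and interstitial list. It encodes the large-conductance BK pore, opened by voltage and calcium, which relaxes smooth muscle and also secretes potassium across the colonic epithelium. It was listed at 9.70 and 9.35 FPKM in RVC and 7.66 and 9.20 FPKM in fresh frozen (mean 8.98 ± 0.903 SD, n = 4). The higher fresh-frozen library lay just below both RVC libraries. The tables held 38 Kcnma1 transcripts. The top pair, 3339 and 3342 nt long, exchanged places between libraries. The first took 34.6% and 59.0% of the gene in RVC and 59.3% and 0.251% in fresh frozen. The second took 26.3% and 0.130% in RVC and 1.90% and 57.7% in fresh frozen. These shares did not follow the group labels, and the gene sum varied less between libraries.

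Kcnmb1 (chromosome 11, 33913013 to 33923641), the smooth muscle beta subunit that raises the calcium sensitivity of BK channels, was listed at 1.66 and 1.91 FPKM in RVC, and 1.33 and 1.21 FPKM in fresh frozen (mean 1.52 ± 0.317 SD, n = 4). Kcnma1 exceeded it by 5.85 and 4.91 times in RVC and 5.76 and 7.63 times in fresh frozen. Lrrc26, the gamma subunit of BK channels in secretory epithelium, was listed at 16.9 and 15.4 FPKM in RVC, and 16.4 and 14.4 FPKM in fresh frozen. It exceeded Kcnma1 in each of the 4 libraries, with a Kcnma1 to Lrrc26 ratio of 0.573 and 0.607 in RVC and 0.468 and 0.641 in fresh frozen. Bulk RNA does not show which cells held the BK pore transcripts. Kcnmb1 overlaps Kcnip1 on the opposite strand, itself listed at 0.246 to 0.425 FPKM.

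Kcnj8 (chromosome 6, 142510563 to 142517340) encodes Kir6.1, the pore of ATP-sensitive channels in muscle and vessel walls. It was listed at 1.99 and 2.66 FPKM in RVC and 1.27 and 1.26 FPKM in fresh frozen (mean 1.80 ± 0.670 SD, n = 4). The fresh-frozen values were close together and both below the RVC values. Its pore relative Kcnj11, the Kir6.2 gene, was lower, at 0.0976 and 0.137 FPKM in RVC, and 0.135 and 0.178 FPKM in fresh frozen. Of the sulfonylurea receptors that complete these channels, Abcc9 was listed at 3.11 and 4.09 FPKM in RVC, and 3.08 and 4.19 FPKM in fresh frozen, and Abcc8 had a mean of 0.268 FPKM. The vascular and muscle pair Kcnj8 and Abcc9 thus exceeded the pair Kcnj11 and Abcc8 in all 4 libraries, while Abcc9 did not share the group difference of Kcnj8. Kcnj8 was divided between 2 transcripts whose shares did not follow the groups, the first taking 57.9% and 87.6% in RVC and 100% and 31.5% in fresh frozen.

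Kcnn3 (chromosome 3, 89427471 to 89582439), the small-conductance calcium-activated channel of interstitial cells that answer purines, was listed at 1.79 and 1.72 FPKM in RVC, and 0.939 and 2.03 FPKM in fresh frozen (mean 1.62 ± 0.474 SD, n = 4). The fresh-frozen libraries bracketed the RVC libraries. Between 45.9% and 58.8% of Kcnn3 per library fell on an 8314-nt transcript that GENCODE annotates as a retained intron and that lacks the filter codons. The coding transcript was listed at 0.970 and 0.831 FPKM in RVC, and 0.403 and 0.837 FPKM in fresh frozen. P2ry1, a purine receptor that acts through this channel, was listed at 4.91 and 4.90 FPKM in RVC, and 6.52 and 6.43 FPKM in fresh frozen, with a log2 difference of -0.34 (SE 0.12) and a limma adjusted p of 0.218.

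Kcnd3 (chromosome 3, 105359646 to 105581318), the A-type channel Kv4.3, was listed at 1.76 and 1.59 FPKM in RVC, and 0.967 and 1.39 FPKM in fresh frozen (mean 1.43 ± 0.342 SD, n = 4). Its RVC values were higher without overlap, and its lowest value was in the first fresh-frozen library. The accessory genes Dpp6 and Dpp10 were near it in level, at means of 1.19 and 1.19 FPKM. Of the other 11 muscle genes, all below 1 FPKM on average, Kcnk3 and Kcnh2 came closest. Kcnk3, the TASK-1 leak channel, was listed at 0.587 and 1.24 FPKM in RVC, and 0.618 and 1.09 FPKM in fresh frozen, a mean of 0.884. Kcnh2, the ERG channel, had a mean of 0.853 FPKM.

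In the neuronal list, 3 of 37 genes reached 1 FPKM. Kcnf1 (chromosome 12, 17222101 to 17226889), a voltage-gated subunit that forms no current alone and modifies other voltage-gated subunits, was the highest. It was listed at 5.27 and 5.28 FPKM in RVC, and 4.15 and 4.68 FPKM in fresh frozen (mean 4.84 ± 0.542 SD, n = 4). The groups did not overlap, with RVC higher. Kcnf1 is a single-exon gene with 1 transcript, and the authors' Cufflinks bounds for it ran from 4.86 to 5.68 and from 4.86 to 5.69 FPKM in RVC, and from 3.77 to 4.53 and from 4.33 to 5.02 FPKM in fresh frozen. Kcnb2, a subunit it can join, was lower, with a mean of 0.572 FPKM. The Kcnf1 level stood beside a summed FPKM of 59.4 and 50.9 in RVC and 38.4 and 51.5 in fresh frozen for 11 enteric neuron markers.

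Kcnip4 (chromosome 5, 48546844 to 49682249), a calcium-binding partner of Kv4 channels, was the steadiest of the 16 genes, at 2.12 and 2.00 FPKM in RVC, and 2.13 and 2.19 FPKM in fresh frozen (mean 2.11 ± 0.077 SD, n = 4). The protein-coding gene 5730480H06Rik, which overlaps it on the opposite strand, was listed at 2.99 and 3.16 FPKM in RVC, and 3.92 and 4.26 FPKM in fresh frozen. It stood above Kcnip4 in every library, and with strand use not stated the values of the pair are uncertain. Kcnab1 (chromosome 3, 64856617 to 65285644), a cytoplasmic beta subunit of Kv1 channels, was listed at 0.935 and 0.672 FPKM in RVC, and 1.36 and 1.27 FPKM in fresh frozen (mean 1.06 ± 0.316 SD, n = 4). It was the member just inside the limit of 1 FPKM, as Kcnk3 was just outside. The Kcnab1 difference arose largely in 1 transcript, ENSMUST00000161404, listed at 0.605 and 0.498 FPKM in fresh frozen and at under 0.0001 FPKM in both RVC libraries. GENCODE gives that transcript no coding sequence. Its main coding transcript took 64.0% and 79.3% of the gene in RVC and 44.5% and 26.5% in fresh frozen.

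**Figure D4:**
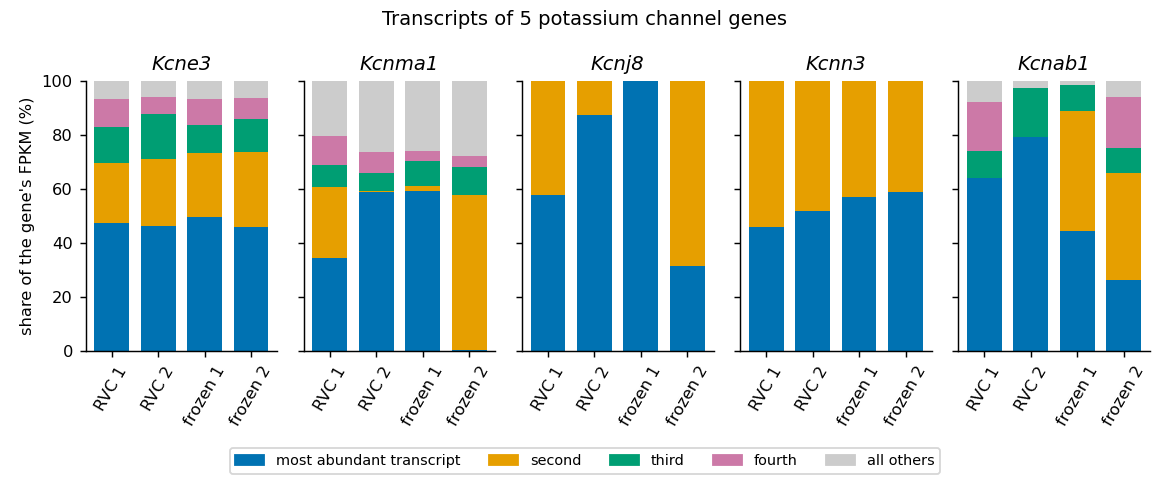
Share of each gene's FPKM (vertical axis, percent) taken by its 4 most abundant transcripts and by all others (grey), in each library, for 5 genes chosen after their values were seen. Kcne3 and Kcnn3 kept similar shares across libraries, while the leading transcripts of Kcnma1 and Kcnj8 changed from library to library and the second Kcnab1 transcript appears in the fresh-frozen libraries.

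The other 34 neuronal genes lay between 0.00205 and 0.818 FPKM on average. Kcnt2, a sodium-activated channel, was the highest of them at 0.818 FPKM. Kcnq3, a subunit of the M-current channels that damp repetitive firing, was listed at 0.325 and 0.450 FPKM in RVC, and 0.331 and 0.796 FPKM in fresh frozen.

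Of the genes known from blood cells and vessels, 2 reached 1 FPKM. Kcnj2 (chromosome 11, 110956990 to 110967647), the strong inward rectifier Kir2.1, was listed at 1.52 and 1.47 FPKM in RVC, and 2.17 and 2.03 FPKM in fresh frozen (mean 1.80 ± 0.357 SD, n = 4). It was lower in RVC without overlap, and the deposited bounds of its 1 transcript, up to 1.73 in RVC and from 1.82 in fresh frozen, did not overlap either. These bounds cover the estimate within a library, not the variation between samples. Kcnab2 (chromosome 4, 152475199 to 152562367), a Kv beta subunit, was listed at 1.94 and 1.34 FPKM in RVC, and 1.27 and 1.27 FPKM in fresh frozen (mean 1.46 ± 0.323 SD, n = 4). A single RVC library stood above the other 3. None of the 22 genes left without a list reached 1 FPKM, the highest being Kcns3 at 0.657, and Kcna10 was listed at 0 in all 4 libraries.

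In the order of mean levels, most neighbours did not differ beyond their spread. Over the 4 libraries the ranges separated between Kcnk5 and Kcnk1, between Kcnk1 and Kcnma1, between Kcnq1 and Kcnf1, and between Kcnn4 and Kcnip4. All other neighbouring pairs among the 16 overlapped. In all, 22 of the 91 genes had a mean below 0.1 FPKM, where single values rest on few reads.

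Between the labelled groups, Kcne3 was the epithelial member that stood lowest in RVC and Kcnj8 the muscle member that stood highest, but no potassium channel gene passed the test. RVC and fresh-frozen libraries were compared with limma on log2(scaled FPKM + 1), a scale that understates the change of low genes, and overlap of groups was judged on scaled values. None of the 16 tested potassium channel genes passed an adjusted p of 0.05, against 5 of 13771 genes tested (0.0363%). At an unadjusted p under 0.05 there were 2 members, Kcne3 and Kcnj8, and 2530 of all genes (18.4%). With 2 libraries a group, the smallest two-sided p of an exact permutation test is 0.33. Groups did not overlap in 7 members that were higher and 5 that were lower in RVC, while 26.5% of all genes were higher and 26.6% lower in this way. The members' share was above that of all genes, but 16 genes of 4 shared libraries do not allow more than this description. Their median log2 difference was 0.18, against 0.007 for all genes tested, and the median ran from 0.00 to 0.25 when single RVC libraries were set against single fresh-frozen ones. Leaving out 1 library gave 29 and 8 called genes without the first and second RVC library and 40 and 22 without the first and second fresh-frozen library, with no potassium channel gene among them. The 75 genes below 1 FPKM were not tested.

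**Figure D5:**
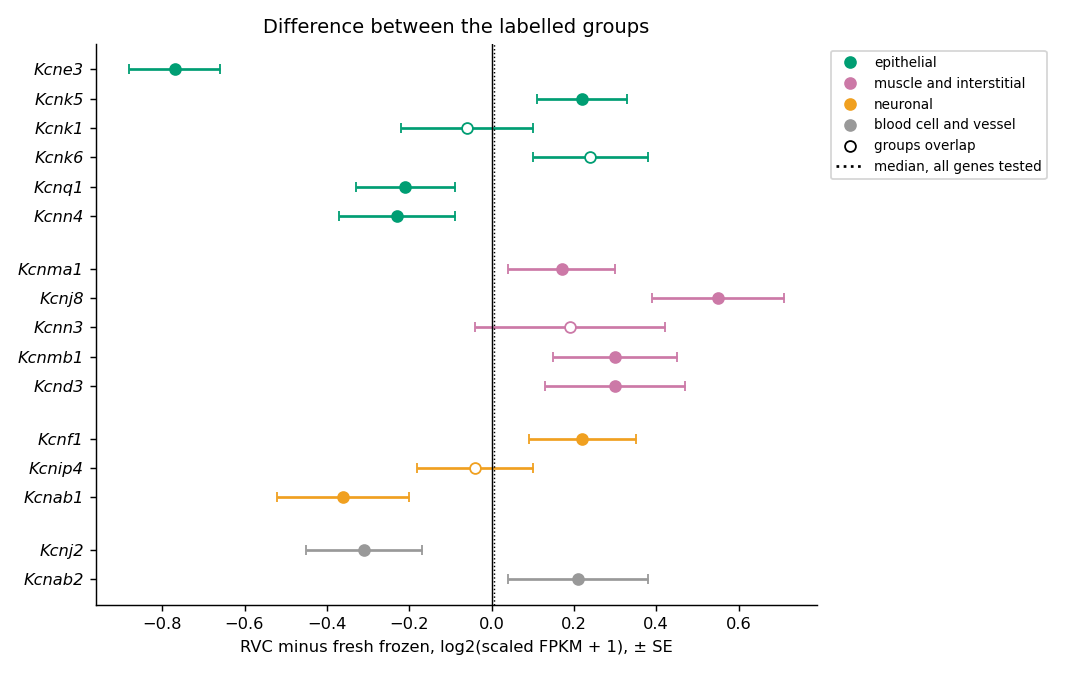
Difference between RVC and fresh frozen in log2(scaled FPKM + 1) for the 16 tested genes (horizontal axis, bars ± SE from limma), coloured by list, with open points where the groups overlapped and a dotted line at the median of all genes tested. Kcne3 at -0.77 lies farthest left and Kcnj8 at 0.55 farthest right.

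The log2 difference of Kcne3 was -0.77 (SE 0.11), a level 1.72 times higher in fresh frozen. Its unadjusted limma p was 0.000214 and its adjusted p 0.112, and it ranked 26th of 13771 genes by p. With the replicate number as a block its adjusted p was 0.0314, and the gene passed. With the numbers crossed between groups, a block added after seeing the data, no potassium channel gene passed. The labels do not state that the numbers pair libraries. Among the other epithelial genes, Kcnq1 differed by -0.21 (SE 0.12) and Kcnn4 by -0.23 (SE 0.14), and Kcnk5 by 0.22 (SE 0.11), with limma adjusted p of 0.367, 0.395 and 0.328. Kcnk6 differed by 0.24 (SE 0.14) and Kcnk1 by -0.06, with limma adjusted p of 0.396 and 0.853, and Kcnk1 stood at 0.17 without the first fresh-frozen library. Of the 6, 1 was higher and 3, Kcne3, Kcnq1 and Kcnn4, were lower in RVC without overlap, and the median of the 6 was -0.14. Over all genes tested, 26.5% were higher and 26.6% lower in RVC without overlap, and counts among 6 genes allow no more than description. Without transcripts under 300 nt Kcnq1 stood at -0.07 and no longer counted among the lower genes. With 1 library left out, Kcnk6 ran from 0.11 (without the first RVC library) to 0.37 (without the second). Kcnk5 stood at 0.14 without the first RVC library, and Kcnn4 at -0.13 without the second fresh-frozen library.

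Epithelial marker genes did not separate the groups in the same way. The 9 markers summed to 8274 and 7978 FPKM in RVC, and 8696 and 6822 FPKM in fresh frozen, with Epcam at 744 and 784 FPKM in RVC, and 778 and 665 FPKM in fresh frozen. Their median log2 difference was 0.09, and 3 were higher and none lower in RVC without overlap. The difference of Kcne3 relative to these markers was not tested.

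In the muscle and interstitial list, all 5 differences were positive, 4 without overlap, with a median of 0.30. Over all genes tested, 51% of differences were positive, and 26.5% of genes were higher in RVC without overlap. Kcnj8 differed by 0.55 (SE 0.16), with an unadjusted limma p of 0.0109 and an adjusted p of 0.171. Kcnmb1 and Kcnd3 differed by 0.30 each (SE 0.15 and 0.17), Kcnn3 by 0.19 (SE 0.23) and Kcnma1 by 0.17 (SE 0.13), with limma adjusted p from 0.327 to 0.676. Leaving out the second fresh-frozen library moved the Kcnn3 difference to 0.52, and leaving out the first moved it to -0.15, so its sign rested on which fresh-frozen library was used. The same libraries moved Kcnma1 and Kcnd3, which stood at 0.30 and 0.45 without the second fresh-frozen library and at 0.03 and 0.15 without the first.

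Like the channel genes of the muscle and interstitial list, smooth muscle markers had positive differences. Kcnma1, Kcnn3 and Kcnd3 were higher in the first RVC library than in the second, while Kcnj8 and Kcnmb1 were lower. Some of these gaps were small, as for Kcnma1 at 9.70 and 9.35 FPKM and Kcnn3 at 1.79 and 1.72 FPKM. The order of the RVC libraries was not tested. Every smooth muscle marker was lower in the first RVC library than in the second. All 10 of 10 were higher in RVC without overlap, none passed at an adjusted limma p of 0.05, and the unadjusted p was under 0.05 for 10. Their sum was 1136 and 1692 FPKM in RVC, and 701 and 751 FPKM in fresh frozen. Desmin (Des), for example, was listed at 135 and 172 FPKM in RVC, and 79.5 and 85.4 FPKM in fresh frozen. The median log2 difference of the markers was 0.81, against 0.30 for the channel genes. These medians are not directly comparable, because adding 1 to FPKM shrinks the differences of low genes, as most of these channel genes are. With 0.1 added in place of 1, Kcnj8 stood at 0.82, Kcnd3 at 0.49, Kcnmb1 at 0.46, Kcnn3 at 0.32 and Kcnma1 at 0.18. Endothelial markers were higher in 4 of 4, with sums of 16.9 and 15.8 FPKM in RVC, and 8.29 and 10.4 FPKM in fresh frozen. Interstitial markers overlapped in 3 of 3, with sums of 8.84 and 11.2 FPKM in RVC, and 8.41 and 14.3 FPKM in fresh frozen. Kcnj8 is known from vessel walls as well as muscle, and the part of either marker difference in the channel differences was not tested.

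The neuronal genes showed no common direction. Kcnf1 differed by 0.22 (SE 0.13), Kcnip4 by -0.04 and Kcnab1 by -0.36 (SE 0.16), with limma adjusted p of 0.392, 0.893 and 0.289. Kcnf1 stood at 0.13 without the first fresh-frozen library, and Kcnip4 ran from -0.07 to -0.01 over the alternatives. Of 9 tested enteric neuron markers 2 were higher in RVC without overlap and 7 overlapped, with a median log2 difference of 0.26. Kcnj2 differed by -0.31 (SE 0.14) and Kcnab2 by 0.21, with limma adjusted p of 0.294 and 0.522. Kcnab2 stood at 0.04 without the first RVC library and at 0.37 without the second. Macrophage markers, which belong to a cell type known to express Kcnj2, were higher in RVC without overlap in 4 of 5, with sums of 41.1 and 40.8 FPKM in RVC, and 30.5 and 25.3 FPKM in fresh frozen, and their part in the Kcnj2 difference was not tested. T cell markers summed to 2.08 to 2.93 FPKM and none was tested.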

How the data were processed

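Bulk RNA depleted of ribosomal RNA was sequenced as 150-bp pairs in 4 libraries, per the labels' protocols. The authors used TopHat 2.1.1 and Cufflinks 2.2.1 on GRCm39, per the series' design text; the annotation release and strand setting are not given in the sources used here. Tables deposited by the authors listed FPKM per transcript with Cufflinks bounds, per the file headers, and the deposited coverage, a signal of reads per base, gave relative depth only. Depth in reads is unknown. Cufflinks divides reads between overlapping transcripts, so transcript shares are less certain than gene sums.

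FPKM was summed per gene. Libraries were scaled by median ratio, and genes with a mean of at least 1 and a longest transcript of at least 300 nt, all with status OK, were tested with limma 3.58.1 in R 4.3.3 (trend, no covariate, pseudocount 1, Benjamini-Hochberg over 13771 genes). The fit was tested on simulated data. Tables and plots used pandas 2.3.3 and matplotlib 3.10.9. Every member at 1 FPKM or more was named, by rule. Other genes named (Hoxb13, Epcam, Des, P2ry1, Dpp6, Dpp10, Best2, Clcn2, overlapping genes and members below 1 FPKM) were chosen after their values were seen. Members and lists were chosen with earlier results of these data known. Some items are not reported here. Alternatives were another pseudocount, scaling, filter or transcript sum, no trend, a replicate block and each library left out.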

Additional observations from a re-analysis of the deposited data

How the results depend on the processing

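The alternatives gave 180 values over the 16 tested potassium channel genes. Of these genes, 14 kept the sign of their difference throughout. With 1 library left out, Kcnk1 ran from -0.30 to 0.17 and Kcnn3 from -0.15 to 0.52, both turning sign without the first fresh-frozen library. Genes called, 5 in the comparison as reported, numbered 0 without a filter on low values, 2 at a mean of at least 5, 0 without transcripts under 300 nt, 0 without the trend and 8 to 40 with 1 library left out. The replicate block gave 112 called genes and 1 potassium channel gene, Kcne3, and changed no other call among the members. Same-numbered libraries deviated with r = -0.134, so the numbers are not shown to pair them. A crossed block, added after seeing the data, gave 12 called genes and no potassium channel gene. Members whose groups did not overlap, 12 of 16 as reported, numbered 42 of 90 without a filter and 4 of 6 at a mean of at least 5. The median difference of the members tested was then 0.02 and 0.05. In the comparison as reported, groups did not overlap in 7321 of 13771 genes. That count over all genes is not given for the other settings, so the members' counts there have nothing to be set beside. The adjusted limma p of Kcne3 ran from 0.0314 to 0.402. By the mean of only the most abundant transcript, 13 members reached 1 FPKM, and by the gene sum 13 had at least 1 FPKM in every library. With 1 library left out, the lone library of a group is assumed to vary like the others. Levels under 0.1 FPKM rest on few reads.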
